A study of Danio rerio with 6 samples.

Results

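The secretory calcium-binding phosphoproteins (SCPPs) are a family of secreted proteins of tooth and bone matrix, described here with the related matrix proteins sparc and sparcl1. Members were chosen by name, as the rows of the count tables whose name equals 1 of 10 listed symbols. The tables held 9 of these among 32053 rows, each on a single row, so the part of the rule that was selected on measured values, the row with the highest total count where a name repeats, was not needed, and scpp6 stood under no row of that name. The symbols were listed with earlier results of these data known, among them the low level of scpp9 in exposed libraries, so scpp9 is given by its values and fitted size alone, outside the counts of calls, and the values of the others are no independent support for a change of the family.

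The samples were zebrafish at 5 days after fertilization, from tissue dissected with forceps and labelled intestinal. The exposed group was kept in BP-3 at 2 mg/L; the abbreviation usually stands for benzophenone-3, an ultraviolet filter of sunscreens, although no label writes the name in full. The other group is named WT in its titles and Control in its treatment field, with no agent given. Each of the 2 groups had 3 libraries, with total counts between 23567603 and 41726516. Titles and protocol name BP-3 for all exposed libraries, and these were taken as 1 group, but their treatment entries count upward from BP-3 to BP-4 and BP-5. Nothing in the labels says whether libraries came from separate clutches or pools, so a p-value here measures only how these libraries vary, which may be technical.

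SCPP genes arose from an ancestral sparcl1-like gene by tandem duplication, and most still lie in clusters on the chromosomes. Acidic members such as osteopontin act mainly in bone and dentin, while members rich in proline and glutamine act mainly in enamel or, in fish, the enamel-like cap of the tooth. Zebrafish carry teeth in the pharynx, not on the jaws, and the gut is not a mineralizing tissue. Whether pharynx was part of the dissected tissue is not stated. Markers of 10 tissues, 115 genes in the tables, all had counts, and none was at 0 in all libraries. Skeletal muscle markers summed to between 60963 and 72120 CPM (counts scaled to library size) over the 6 libraries, epidermis markers to between 21833 and 26277 CPM and enterocyte markers to between 2506 and 4839 CPM. In bulk tissue, fewer cells of a type and less RNA per cell cannot be told apart.

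Beside scpp9, a pair of members fell and none rose. Of the 9 members, 8 passed the filter on low counts, each with at least 16 counts in every library. In the quasi-likelihood test of edgeR, adjusted by the method of Benjamini and Hochberg over all 23167 rows and held to a threshold of 0.05, 2 of the 7 members other than scpp9 were lower (odam and sparcl1) and 0 were higher, where 4.29% of all tested rows were lower and 6.26% higher. The values of the groups did not overlap in 3 of these 7 with lower values in BP-3 (odam, spp1 and sparcl1) and in 1 with higher values (scpp5), where 14.9% and 16.1% of all rows were separated in these directions. Nothing is read from these counts, since the members were chosen with this comparison known. The spans of odam and scpp9 also overlap on the chromosome, so odam may not be a call separate from scpp9, which was not tested.

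Among the genes of tooth matrix, scpp9 had the lowest exposed level relative to control, a low level already seen when the members were listed. The gene scpp9 is known in zebrafish from the epithelium that lays down tooth matrix. In control replicates 1 to 3 it had 256, 208 and 149 counts, or 7.05, 7.28 and 6.15 CPM. In BP-3 replicates 1 to 3 it had 48, 30 and 40 counts, or 1.16, 0.860 and 1.63 CPM. The lowest control library thus lay well above the highest exposed library. The mean was 6.83 ± 0.595 CPM for control and 1.22 ± 0.389 CPM for BP-3 (SD, n = 3), with a fitted log2 fold change of -2.52 ± 0.21 (SE), an exposed level of 0.175 of control. Over 16 alternative settings the log2 fold change lay between -2.81 and -2.32.

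The gene odam, whose product is secreted by enamel-forming cells and gum epithelium in mammals, was lower too. Its control libraries 1 to 3 lay at 12.1, 13.4 and 11.4 CPM. Its BP-3 libraries 1 to 3 lay at 8.30, 7.68 and 5.26 CPM, all below the control libraries. The span of odam overlaps that of scpp9, and the part of shared reads in these values was not tested. As counted, odam fell by 0.78 ± 0.16 (SE) on the log2 scale, which is 1.72-fold lower (adjusted p = 0.0128, edgeR). Without control replicate 2 the adjusted p was 0.0543, and with BP-3 replicate 1 as the only exposed library it was 0.155, with log2 fold changes of -0.72 and -0.57.

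**Figure D1:**
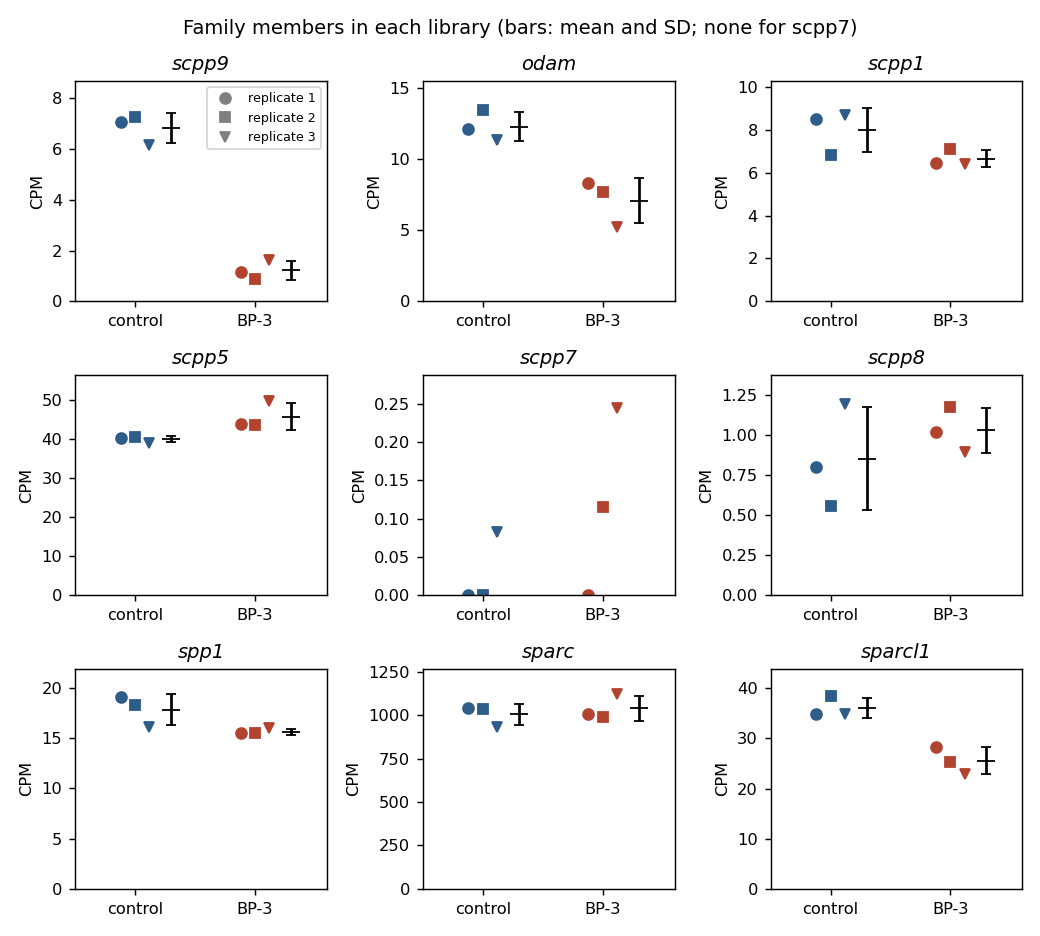
Level of each of the 9 members in the 6 libraries, in CPM on an axis from 0, with 1 point per library (circle, square and triangle for replicates 1, 2 and 3) and the mean and SD of each group beside them, except for scpp7, which has counts of 0. The control points of scpp9 (6.15 to 7.28 CPM) lie above its exposed points (0.860 to 1.63 CPM), and odam and sparcl1 are separated in the same direction by less.

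The remaining members of tooth matrix did not pass the test. The gene scpp1 lay at 8.48, 6.82 and 8.71 CPM in control replicates 1 to 3 and at 6.45, 7.11 and 6.41 CPM in BP-3 replicates 1 to 3. Control replicate 2 lay below BP-3 replicate 2, so the groups overlapped, and the log2 fold change was -0.27 ± 0.13 (SE; adjusted p = 0.234, edgeR). The gene scpp5, a member rich in proline and glutamine, lay at 40.3, 40.3 and 38.9 CPM in control and at 43.8, 43.5 and 49.8 CPM in BP-3. Every exposed library of scpp5 lay above every control library, but by little: the log2 fold change was 0.20 ± 0.08 (SE; adjusted p = 0.142, edgeR).

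The counts of scpp8 and scpp7 were low. With 16 to 42 counts a library, scpp8 lay at 0.799, 0.560 and 1.20 CPM in control and at 1.02, 1.17 and 0.898 CPM in BP-3. The groups of scpp8 overlapped, and its log2 fold change of 0.30 had an SE of 0.33 (adjusted p = 0.624, edgeR). For scpp7 the control libraries held 0, 0 and 2 counts and the exposed libraries 0, 4 and 6, too few to pass the filter. A count of 0, set at 3 counts, allows up to 0.0826 and 0.105 CPM in control replicates 1 and 2 and up to 0.0728 CPM in BP-3 replicate 1, and these limits cover counting error only. The reference gene table gives scpp6 as another name of ambn, which encodes the enamel matrix protein ameloblastin. The row named ambn held 0, 2 and 0 counts in control and 0, 3 and 3 in BP-3, and was not tested.

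The bone member spp1 encodes osteopontin, an acidic phosphoprotein made by bone-forming cells and by macrophages that binds mineral and integrins. It lay at 19.1, 18.3 and 16.1 CPM in control and at 15.48, 15.48 and 15.998 CPM in BP-3. Its groups were separated only narrowly, by control replicate 3 at 16.15 and BP-3 replicate 3 at 15.998 CPM, and spp1 did not pass the test (log2 fold change -0.19 ± 0.09, SE; adjusted p = 0.211, edgeR). Macrophage markers moved the other way: the 10 marker genes summed to between 61.7 and 63.4 CPM in control and to between 78.6 and 91.0 CPM in BP-3, and their part in the value of spp1 was not tested.

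Both relatives outside the SCPP family proper are matrix proteins that bind calcium. The gene sparc encodes osteonectin, which binds collagen. It lay at 1041, 1037 and 933 CPM in control and at 1006, 986 and 1122 CPM in BP-3. The groups overlapped and the log2 fold change was 0.05 ± 0.08 (SE; adjusted p = 0.757, edgeR), with a sign that turned when replicate 3 of either group was left out.

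The gene sparcl1 encodes hevin, known in mammals from glia, blood vessels and synapses. It lay at 35.0, 38.4 and 34.9 CPM in control replicates 1 to 3 and at 28.3, 25.4 and 23.0 CPM in BP-3 replicates 1 to 3. All exposed libraries lay below all control libraries, and sparcl1 fell by 0.50 ± 0.09 (SE) on the log2 scale, 1.41-fold lower (adjusted p = 0.00809, edgeR). With BP-3 replicate 1 alone the log2 fold change was -0.35 (adjusted p = 0.214). Over all tested rows 6.26% were higher and 4.29% lower. Of 11 glia markers 1 rose (fabp7a) and 4 fell (slc1a2b, mbpa, mpz and plp1b). The 11 markers had overlapping sums of 1099 to 1184 CPM in control and 1074 to 1157 CPM in BP-3. Those sums held glula, with means of 262 CPM in control and 267 CPM in BP-3, and glulb, with 292 and 298 CPM. Of 11 endothelium markers 1 rose and 0 fell, with sums of 252 to 262 CPM in control and 286 to 296 CPM in BP-3. The part of either cell type in the fall of sparcl1 was not tested.

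**Figure D2:**
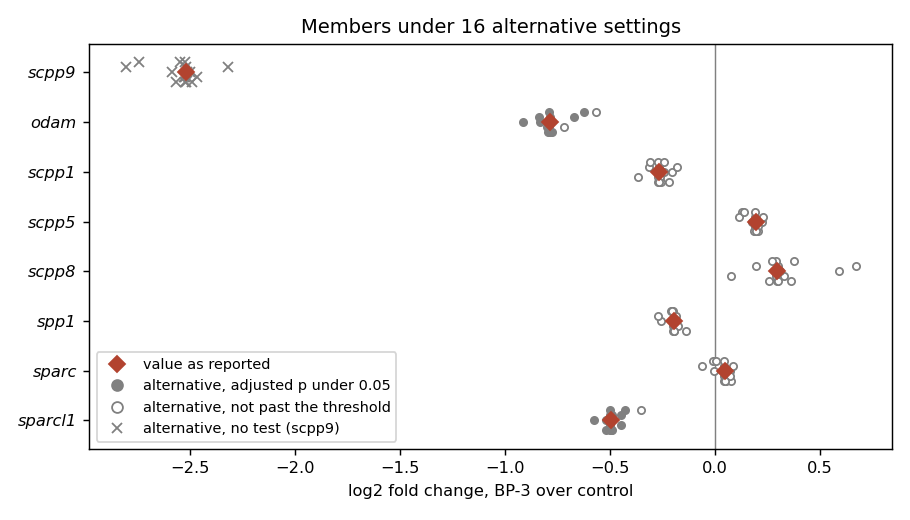
Fitted log2 fold change of BP-3 over control for the 8 tested members, as reported (red diamonds) and under 16 alternative settings (circles, filled where the adjusted p is under 0.05, and crosses for scpp9, which is shown without a test). The values of scpp9 lie between -2.81 and -2.32, those of odam between -0.91 and -0.57 and those of sparcl1 between -0.58 and -0.35, whereas those of sparc lie on both sides of 0.

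Several members are neighbours on the chromosomes. In the reference table of RefSeq genes, whose assembly GRCz12tu is not the build named for these files and is used here for gene order only, 8 genes run from enam through scpp5, scpp7 and ambn to odam and scpp9, with a pair of noncoding RNA genes between ambn and odam. The count tables held 7 of the 8. The span of odam in that table overlaps that of scpp9. The use of strand in counting is not given in the sources used here, so reads from places where these genes overlap cannot be told apart. At the other end of the same cluster, enam, which encodes the enamel matrix protein enamelin, lay at 21.0, 23.2 and 17.7 CPM in control and at 27.6, 27.7 and 19.5 CPM in BP-3. Replicate 3 was the lowest library of enam in both groups, which overlapped, and its log2 fold change of 0.28 ± 0.14 (SE) did not pass (adjusted p = 0.258, edgeR). It passed with the replicate number as a block (adjusted p = 0.0275) and without BP-3 replicate 3 (adjusted p = 0.0422). With both replicate 3 libraries left out enam passed too (adjusted p = 0.0201, edgeR). The noncoding RNA gene si:dkey-22i16.7, named here as a neighbour of odam and after its values were seen, lay between 11.9 and 12.8 CPM in control and between 9.83 and 10.8 CPM in BP-3 (log2 fold change -0.26 ± 0.10, SE; adjusted p = 0.122, edgeR). The genes scpp1 and sparcl1 are neighbours elsewhere, and so are scpp8 and spp1.

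Ratios within a library do not depend on scaling and show how the members moved against each other. For each count of odam there were 0.582, 0.542 and 0.542 counts of scpp9 in control replicates 1 to 3. In BP-3 replicates 1 to 3 there were 0.140, 0.112 and 0.310. The control ratios thus lay close together and above all exposed ratios, while BP-3 replicate 3, with the lowest odam and the highest scpp9 of its group, stood apart from the other exposed libraries. For each count of scpp1 there were 0.831, 1.07 and 0.706 counts of scpp9 in control and 0.180, 0.121 and 0.255 in BP-3. The ratio of scpp5 to odam went from 3.33, 3.003 and 3.43 in control to 5.28, 5.66 and 9.46 in BP-3. Since odam and scpp9 overlap and the use of strand is not given, their ratio may rest partly on shared reads, which was not tested. All of these ratios are descriptions of members chosen with the result known, and the differences between members were not tested.

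**Figure D3:**
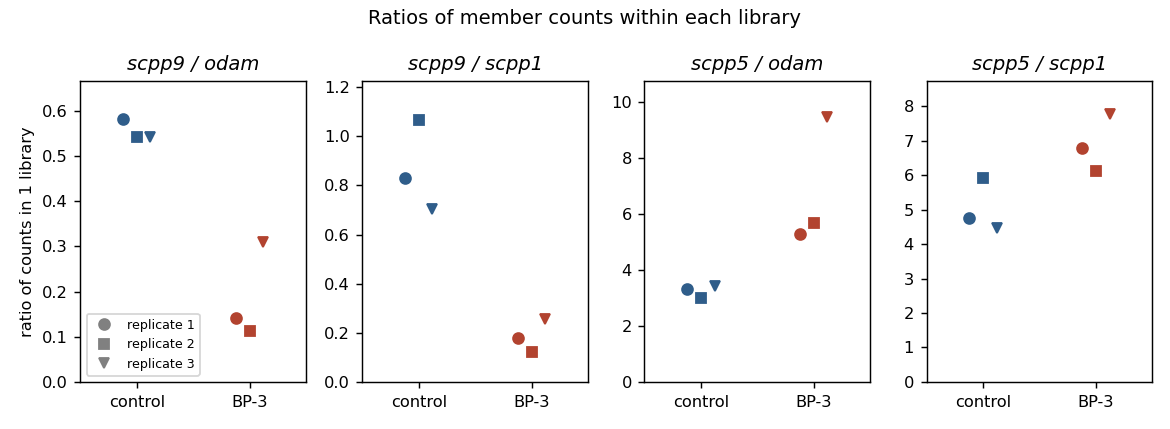
Ratio of the counts of 2 members within each library, on axes from 0, with 1 point per library (circle, square and triangle for replicates 1, 2 and 3). The ratio of scpp9 to odam lies between 0.542 and 0.582 in control and between 0.112 and 0.310 in BP-3, and the ratio of scpp5 to odam is higher in every exposed library.

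To place the members, 9 lists of related genes were examined in the same fit, and these lists were written with earlier results of these data known. Of the 145 genes tested, 7 rose and 12 fell, where 6.26% of all rows were higher and 4.29% lower. With the replicate number as a block, which raised those shares to 11.9% and 9.84%, the counts rose in all lists but that of the tooth germ. Leaving out 1 library ended the call of 12 of the 19 genes in at least 1 case.

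Most rows did not pass, since 6.26% of all tested rows were higher and 4.29% lower (11.9% and 9.84% with the block). The same held for genes of the tooth germ and of bone formation. Of 20 tooth germ genes tested, such as the transcription factor gene dlx2b, 0 rose and 0 fell, with a median log2 fold change of -0.04 beside a median near 0 over all tested rows. In this list dlx2b had a log2 fold change of -0.04 ± 0.18 (SE). The smallest adjusted p of the list were those of shha, lef1 and dlx2a (0.201, 0.233 and 0.269, edgeR), with log2 fold changes of -0.24, -0.17 and -0.18. Values of the groups were separated with lower values in BP-3 in 3 of the 20 and with higher values in 0, where 14.9% and 16.1% of all rows were. The log2 fold change was positive in 9 of the 20. Of 23 bone formation genes, 1 rose and 1 fell (2 and 3 with the block), with a median of -0.0044. The phosphatase gene phospho1, which acts at the start of mineral formation, rose 1.37-fold (adjusted p = 0.0213, edgeR), and the collagen gene col1a1b was 1.18-fold lower (adjusted p = 0.0417, edgeR). The call of phospho1 was lost without BP-3 replicate 2 or 3 or control replicate 1 or 2, with adjusted p up to 0.0875, and that of col1a1b without BP-3 replicate 1, 2 or 3 or control replicate 1 or 2, with adjusted p up to 0.160. The osteoblast transcription factor gene sp7 lay between 5.76 and 6.48 CPM in control and between 4.25 and 5.50 CPM in BP-3, without passing (log2 fold change -0.26 ± 0.14, SE; adjusted p = 0.284, edgeR). The osteoblast factor gene runx2b and entpd5a, which zebrafish need to mineralize bone, had log2 fold changes of -0.02 ± 0.18 and -0.06 ± 0.10 (SE). Collagen genes of bone, col1a1a and col10a1a, had log2 fold changes of -0.05 ± 0.07 and 0.01 ± 0.08 (SE).

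Marker sums moved beside these values. The bone formation genes summed to between 5095 and 5241 CPM in control and to between 4851 and 4932 CPM in BP-3. The cartilage genes summed to between 3625 and 3836 CPM in control and to between 3359 and 3588 CPM in BP-3, and the epidermis markers to between 24289 and 26277 CPM and to between 21833 and 23358 CPM. The sums of bone formation, cartilage and epidermis were separated between groups. Those of the tooth germ genes overlapped, at 253 to 263 CPM in control and 241 to 254 CPM in BP-3. The collagen gene col1a1a alone gave means of 2206 CPM (control) and 2126 CPM (BP-3) to the bone formation sum. Means of 1008 CPM (control) and 853 CPM (BP-3) came from col1a1b and of 754 and 641 CPM from col1a2. In the same sum postnb went the other way, from a mean of 626 CPM in control to 729 CPM in BP-3. The part of tissue share in the values of scpp9 and odam was not tested. Of 10 marker lists 6 had higher sums in every exposed library (enterocyte, hepatocyte, fin fold, macrophage, endothelium and fibroblast) and 1 had lower sums (epidermis). The fibroblast sums were separated only narrowly, at 2292 to 2355 CPM in control and 2361 to 2505 CPM in BP-3. In the fin fold sum, the gene and1 went from a mean of 142 CPM in control to 605 CPM in BP-3. Of the 8 fin fold genes 6 were not called.

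Of 25 cartilage genes 2 were higher and 3 lower, where 6.26% of all rows were higher and 4.29% lower. With the block 3 were higher and 5 lower, where 11.9% and 9.84% of all rows were. The matrilin gene matn3b, whose product links cartilage matrix fibres, lay at 8.57, 7.24 and 7.10 CPM in control and at 18.0, 16.9 and 15.1 CPM in BP-3. Every exposed library held more than the highest control library, and matn3b rose 2.18-fold (adjusted p = 0.00035, edgeR), a call kept in all alternatives run. Its relative matn3a rose 1.36-fold (adjusted p = 0.0142, edgeR), and the collagen gene col11a1a was 1.25-fold lower (adjusted p = 0.0138, edgeR). These calls of matn3a and col11a1a were lost without BP-3 replicate 1 (adjusted p = 0.0627 and 0.0503), without control replicate 1 (0.0587 and 0.0514) and without control replicate 2 (0.0668 and 0.0604), and that of col11a1a also without BP-3 replicate 2 (0.0890). Of 10 osteoclast genes 0 rose and 1 fell (2 and 1 with the block), beside the same shares of all rows. A proton pump gene, tcirg1a, lay at 30.2, 27.3 and 28.6 CPM in control and at 18.5, 19.7 and 15.4 CPM in BP-3, 1.6-fold lower (adjusted p = 0.00248, edgeR). Its relative tcirg1b, named after its value was seen, had means of 28.3 CPM in control and 29.6 CPM in BP-3. That gene did not pass (log2 fold change 0.06 ± 0.07, SE; adjusted p = 0.620, edgeR).

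SCPPs leave the endoplasmic reticulum in coated vesicles and are phosphorylated in the secretory pathway by kinases of the Fam20c type. Of 15 genes tested in a wider list of secretory phosphorylation and matrix export, 2 rose and 1 fell (2 and 2 with the block). Over all rows 6.26% were higher and 4.29% lower (11.9% and 9.84% with the block). That list also held genes of other steps, such as those of proteases. The coat protein genes sec13 and sec24d, which shape vesicles leaving the endoplasmic reticulum, rose 1.54-fold and 1.37-fold (adjusted p = 0.00144 and 0.00512, edgeR), whereas sec23a of the same coat was 1.44-fold lower (adjusted p = 0.043, edgeR). The fall of sec23a was lost without any 1 of 5 libraries, BP-3 replicate 2 being the exception, with adjusted p up to 0.148. The kinase gene fam20cb lay at 18.1 ± 2.13 CPM (control) and 18.1 ± 1.01 CPM (BP-3; SD, n = 3). Its relative fam20ca lay between 0.661 and 0.770 CPM in control and between 0.995 and 1.43 CPM in BP-3 and did not pass (adjusted p = 0.116, edgeR), and fam20cl had too few counts to be tested.

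Of 13 genes of osteopontin receptors 2 rose and 0 fell (3 and 1 with the block). Among all rows 6.26% were higher and 4.29% lower (11.9% and 9.84% with the block). The integrin genes itgb3a and itgb1b rose 1.28-fold and 1.22-fold (adjusted p = 0.0232 and 0.047, edgeR). Without control replicate 1 both calls were lost (adjusted p = 0.104 and 0.115), as they were without BP-3 replicate 1 (0.0860 and 0.132) and without BP-3 replicate 2 (0.0972 and 0.0675). Leaving out control replicate 2 (0.165) or BP-3 replicate 3 (0.104) ended the call of itgb1b as well, as did upper quartile scaling (0.0505) and no filter (0.0544). The integrin gene itgav lay between 174 and 197 CPM in control and between 203 and 213 CPM in BP-3 (adjusted p = 0.154, and 0.0212 with the block, edgeR). With both replicate 3 libraries left out itgav passed as well (adjusted p = 0.0161, edgeR). Of 7 relatives of sparc, 0 rose and 1 fell (1 and 2 with the block), beside the same shares of all rows. The proteoglycan gene spock2 was 1.61-fold lower (adjusted p = 0.0186, edgeR), a call lost when control replicate 1 (0.0734) or BP-3 replicate 2 (0.0812) was left out.

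Of 31 genes of calcium and phosphate balance 0 rose and 5 fell, where 6.26% of all rows were higher and 4.29% lower. With the block 2 rose and 8 fell, where 11.9% and 9.84% of all rows did. The median log2 fold change of the list was -0.0018. The gene cyp24a1, whose enzyme breaks down active vitamin D, lay at 13.8, 12.5 and 11.6 CPM in control and at 6.43, 6.33 and 4.90 CPM in BP-3, 2.13-fold lower (adjusted p = 0.000879, edgeR). The gene cyp27b1, whose enzyme makes active vitamin D, lay at 4.71, 4.72 and 4.13 CPM in control and at 2.21, 1.81 and 2.04 CPM in BP-3, 2.24-fold lower (adjusted p = 0.00227, edgeR). Transcripts of both enzymes, which have opposite actions, were thus lower in all exposed libraries, while the enzymes themselves were not measured. The gene ahsg1, which encodes a fetuin that binds mineral in plasma, lay between 18.3 and 24.1 CPM in control and between 11.3 and 13.4 CPM in BP-3 (adjusted p = 0.00217, edgeR). Leaving out any 1 library kept the falls of cyp24a1, cyp27b1 and ahsg1, while with BP-3 replicate 1 alone those of cyp27b1 and ahsg1 were lost (adjusted p = 0.0840 and 0.108). The call of the phosphate carrier gene slc34a1a (adjusted p = 0.0289, edgeR), named after its value was seen, was lost without any 1 library other than BP-3 replicate 1, with adjusted p up to 0.0910. That of fetub, another fetuin gene, likewise named (adjusted p = 0.0494, edgeR), was lost without replicate 1 or 2 of either group, with adjusted p up to 0.208.

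**Figure D4:**
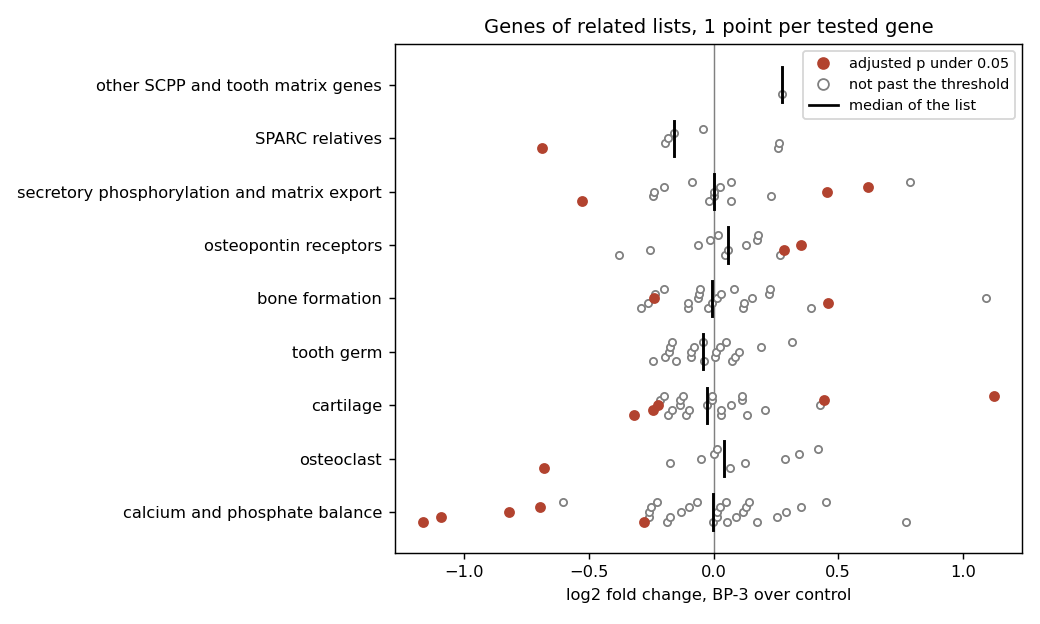
Log2 fold change of BP-3 over control for each tested gene of 9 related lists (red where the adjusted p is under 0.05, open where it is not), with a black bar at the median of each list. Most genes lie near 0, and the lowest points are cyp27b1 and cyp24a1 of calcium and phosphate balance and the highest called point is matn3b of cartilage.

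Genes were ranked by the root mean square difference of their centred log2 CPM from that of scpp9 over the 6 libraries. The ranking covered 15601 genes whose log2 CPM averaged 1 or more, with clone-type and LOC names left out. The 5 genes most like scpp9 were egr4 at a difference of 0.30, ppp1r27b at 0.32, btg2 at 0.33, fosab at 0.35 and npas4a at 0.41. Chosen for their likeness to a gene with low exposed values, they were lower in BP-3 by construction, here by 4.90-fold, 4.03-fold, 3.75-fold, 7.52-fold and 8.94-fold. No other member was among them, which was fixed by the measure and is no result about the members. The measure weighs the difference between the groups along with the spread within them. Members with much smaller fitted changes than scpp9 therefore could not come close. The genes scpp7 and scpp8 also lay below the level needed to enter the ranking.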

How the data were processed

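RNA was sequenced in paired-end mode from 6 libraries, per the labels' protocols. The authors deposited 1 table of raw counts per gene for each library, without normalization. For the aligner, the counting tool, the annotation, the use of strand and the handling of read mates, nothing is given in the sources used here. The submitters' processing notes name the build mm9, which is a mouse build, so no coordinates are printed.

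Groups were taken from the titles. Rows without a name held no values. Low rows were removed with filterByExpr, which left 23167 rows, and TMM factors set the library sizes. The comparison ran in edgeR 4.0.16 under R 4.3.3 (quasi-likelihood test, no covariates, Benjamini-Hochberg adjustment over all rows, threshold 0.05). The SE is the log2 fold change divided by the root of F. CPM uses TMM-scaled library sizes. Fitted log2 fold changes were checked on counts simulated from the same fit, with libraries drawn independently of each other. That check does not cover deviations shared between libraries. Replicates of a group differed by more than sampling noise. For 3 libraries a group, the smallest p of an exact two-sided permutation test is 0.10, so none is printed.

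Same-numbered libraries of the 2 groups deviated together (correlations of deviations from the group means 0.19, 0.15 and 0.44 for replicates 1, 2 and 3). So did BP-3 replicate 1 with control replicate 2 (0.20) and BP-3 replicate 2 with control replicate 1 (0.17), so only replicate 3 stands apart. The fit with the replicate number as a block is given where it changes a call.

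Members and lists were chosen with earlier results of these data known. Named genes are all members, up to 3 genes per related list by adjusted p (mainly those past the threshold), a panel of 12 chosen for their roles (1 of which is not reported here), the 5 genes most like scpp9, and the genes marked as named after their values were seen. Alternatives were other scaling (DESeq2 size factors, upper quartile), other filters (none, 1 CPM in 3 libraries), DESeq2 1.42.0, limma-voom (limma 3.58.1), the block, each library left out, both replicate 3 libraries left out, BP-3 replicate 1 alone, and repeated names summed. Figures used matplotlib 3.10.9.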

Additional observations from a re-analysis of the deposited data

How the results depend on the processing

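Of the 7 tested members other than scpp9, all but sparc kept their direction in all 16 alternatives. The settings reuse the same libraries, so a kept direction says little, as for scpp8 (log2 fold change 0.30 ± 0.33, SE). The log2 fold change of sparc, which did not pass in any, turned to -0.011 without BP-3 replicate 3, to -0.0017 without control replicate 3 and to -0.060 with both replicate 3 libraries left out, and leaving out 1 library gave values from -0.011 to 0.085. Apart from scpp9, lower members numbered 2 in all settings but these: there was 1 without control replicate 2 and 0 with BP-3 replicate 1 alone (edgeR, unadjusted p in the full fit 0.000586 for odam and 0.000273 for sparcl1). No member was called higher in any setting. DESeq2 and edgeR both gave 0 members higher, and the unadjusted p of scpp5 in edgeR was 0.0301. Over all rows, 1451 were higher and 995 lower. With the replicate block, the pairing described under the processing, these became 2747 and 2279, while the block changed no call among the members. With both replicate 3 libraries left out, 2147 were higher and 1747 lower. With BP-3 replicate 1 alone, where the exposed library is assumed to vary like the controls, 293 were higher and 142 lower. Leaving out 1 library gave between 696 and 1448 higher, between 388 and 1046 lower and between 1 and 2 lower members other than scpp9. The cause of these shifts was not tested. Without a filter scpp7 could be fitted (log2 fold change 2.06 ± 1.56, SE; adjusted p = 0.496, edgeR). Depth limits scpp7 and scpp8, with at most 6 and 42 counts in a library.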
